A study of Mus musculus with 16 samples.

Results

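The podocyte slit diaphragm genes described here are Nphs1, Podxl, Synpo, Wt1, Ptpro, Cdkn1c, Magi2 and Plce1, taken on every array from the probes that the array files assign to a transcript of these genes. They are 8 of 22911 genes with a named probe, and 13 of 56605 probes. Of these 13 probes, 12 were tested, since the second probe of Magi2 was well above background on too few arrays. The brightest probe of each gene was well above background on 16 of 16 arrays.

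The study asked what the loss of Sting does in lupus-prone mice that lack the inhibitory receptor Fcgr2b, and measured RNA of the whole kidney of 16 mice at 6 months, 1 mouse per array, from 100 ng of RNA. The groups were wild-type mice (C57BL/6), Fcgr2b-/- mice (129/C57BL/6, labelled Fcgr2b-ko and lupus mouse), double-deficient Fcgr2b-/-.Sting gt/gt mice (129/C57BL/6, labelled Fcgr2b-ko, Sting-ko) and Sting gt/gt mice (C57BL/6, labelled Sting-ko), with 4 mice in each. In the wild-type group both genes were intact. Fcgr2b genotype and strain background run together, so a difference between Fcgr2b-deficient and Fcgr2b-intact mice cannot be told apart from one between strains. The methods say that wild-type mice were bought and that the double-deficient mice came from crossing the 2 single-deficient lines. The labels of the Fcgr2b-/- mice state no Sting allele, and the study's own drawing of these arrays heads the group Fcgr2b-/-.Sting wt/gt.

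Podocytes wrap the capillaries of the glomerulus with interlocking foot processes, and the slit diaphragm is the protein sheet that bridges the gaps between them and holds back plasma proteins. Its core is nephrin, joined by scaffold proteins to the actin skeleton of the foot process, while a coat of charged sialoproteins keeps neighbouring processes apart. Mature podocytes do not divide, and in lupus nephritis immune deposits form next to them. Podocytes are a small share of the cells of a whole kidney. In such a bulk sample, fewer podocytes and less RNA per podocyte cannot be told apart, and the same holds for more of either.

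Every array held 62976 spots, none of them saturated. The number of probes well above background ran from 28443 to 35566 per array, and the number of arrays limits the precision. Levels are log2 intensity minus the 75th percentile of the same array, so that 0 is the level of the probe at the 75th percentile. Differences are log2 differences of group means with 95% intervals from limma over all 16 arrays. The arrays lay on 2 slides. Slide 1 held 2 wild-type, 3 Fcgr2b-/-, 1 double-deficient and 2 Sting gt/gt arrays, and slide 2 held the rest.

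To check the labels, the levels of the targeted genes are given before all others. Fcgr2b stood at 2.13, 1.91, 1.60 and 1.14 in the wild-type mice, 0.70, 0.02, 0.06 and 0.19 in Fcgr2b-/- mice, -0.04, 0.50, -0.40 and -0.24 in double-deficient mice, and 1.54, 1.05, 0.70 and -0.19 in Sting gt/gt mice. All 8 Fcgr2b-deficient arrays lay below all 4 wild-type arrays, but the array labelled Sting gt/gt replicate 4 lay among the Fcgr2b-deficient ones. The log2 difference of Fcgr2b was -1.45 (95% interval -2.19 to -0.71, limma adjusted p = 0.385) in Fcgr2b-/- and -1.74 (95% interval -2.49 to -1.004, limma adjusted p = 0.477) in double-deficient against wild-type mice, and neither passed the test. Sting gt/gt mice, which carry Fcgr2b, were at -0.92 (95% interval -1.66 to -0.18, limma adjusted p = 0.732), with 3 of their 4 arrays below all wild-type arrays, so a level below wild type does not by itself mark an Fcgr2b-deficient mouse. The size of the difference in Sting gt/gt mice rested in part on replicate 4, at -0.19. Whether the probe lies in the deleted stretch is not given in the files. Sting1 stood between -1.35 and 1.03 in wild-type mice and between -0.10 and 1.01 in Sting gt/gt mice. The gt (Goldenticket) allele is a missense change, so this level checks no label. On Fcgr2b-/- replicates 1 and 4 Sting1 stood at 2.69 and 2.49, above all other arrays.

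The comparison of Fcgr2b-/- with wild-type mice asks what the loss of Fcgr2b does while Sting is present. All 8 podocyte genes had a higher mean in Fcgr2b-/- mice, by log2 differences from 0.20 for Magi2 to 1.099 for Cdkn1c, with a median of 0.87. Over all probes tested the median was -0.06, and 43.4% were higher. None of the 8 genes passed the test: limma called 0 of 8, against 0.0505% of all probes (18 of 35629). At an unadjusted p under 0.05 there were 2 of 8, Synpo and Cdkn1c, against 3.35% of all probes. The groups did not overlap for 1 of 8, Synpo, against 1.24% of all probes. The exact Mann-Whitney test that the study's methods name, run at 2-fold and without adjustment, also counted 1 of 8, Synpo, beside 0.404% of all probes (144), and with adjustment it counted 0 of 8 and 0 of all probes.

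**Figure D1:**
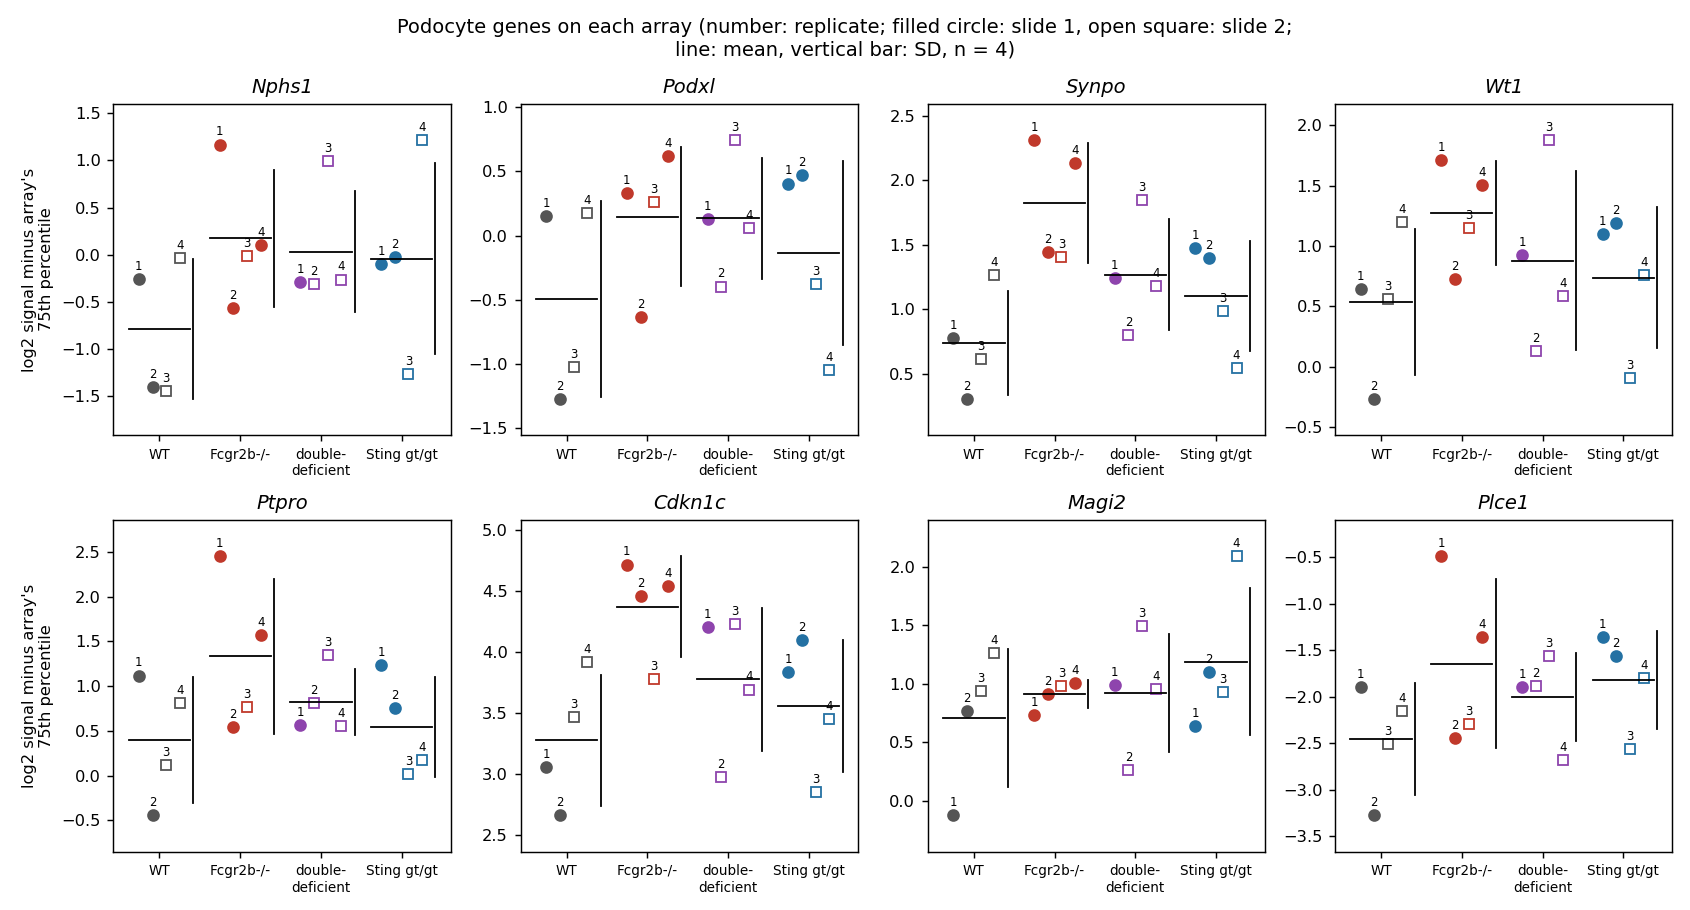
Levels of the 8 podocyte genes on each array (log2 intensity minus the array's 75th percentile) by genotype, with the replicate number beside each point. Filled circles are slide 1 and open squares slide 2, the horizontal line is the mean of 4 arrays and the vertical bar the SD; for Synpo the Fcgr2b-/- arrays (1.40 to 2.31) lie above the wild-type arrays (0.30 to 1.26), and for the other 7 genes the groups overlap.

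Nphs1 encodes nephrin, the transmembrane protein whose extracellular domains form the slit diaphragm. Its level was -0.26, -1.40, -1.44 and -0.03 in the wild-type mice, 1.17, -0.56, -0.01 and 0.10 in Fcgr2b-/- mice, -0.29, -0.31, 0.99 and -0.26 in double-deficient mice, and -0.10, -0.03, -1.26 and 1.22 in Sting gt/gt mice. Wild-type replicates 2 and 3 were the lowest of all 16 arrays, and the 4 groups overlapped. The log2 difference between Fcgr2b-/- and wild-type mice was 0.96 (95% interval -0.15 to 2.07, limma adjusted p over 35629 probes 0.9996), and 0.63 without Fcgr2b-/- replicate 1. A second probe of Nphs1 gave a difference of 1.005.

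Magi2 encodes a scaffold that binds nephrin from inside the cell. Its level was -0.12, 0.76, 0.94 and 1.26 in the wild-type mice, 0.74, 0.92, 0.98 and 1.01 in Fcgr2b-/- mice, 0.99, 0.26, 1.49 and 0.96 in double-deficient mice, and 0.64, 1.102, 0.93 and 2.09 in Sting gt/gt mice. The Fcgr2b-/- arrays lay within the range of the wild-type arrays, and the highest array was Sting gt/gt replicate 4. Of the 8 genes Magi2 had the smallest log2 difference between Fcgr2b-/- and wild-type mice, 0.20 (95% interval -0.55 to 0.96), and it was -0.08 without wild-type replicate 1 and 0.39 without wild-type replicate 4.

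Plce1 encodes phospholipase C epsilon, a signalling enzyme whose loss in humans causes nephrotic syndrome. Its level was -1.89, -3.28, -2.50 and -2.16 in the wild-type mice, -0.49, -2.45, -2.29 and -1.36 in Fcgr2b-/- mice, -1.89, -1.89, -1.57 and -2.68 in double-deficient mice, and -1.36, -1.56, -2.56 and -1.80 in Sting gt/gt mice. Fcgr2b-/- replicates 1 and 4 were higher than every wild-type array, while replicates 2 and 3 lay among them. The log2 difference was 0.81 (95% interval -0.12 to 1.74), and a second probe of the gene gave 0.43. It was 0.42 without Fcgr2b-/- replicate 1, 0.54 without wild-type replicate 2, and 1.15 and 0.04 within slides 1 and 2.

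Ptpro encodes a receptor tyrosine phosphatase of the foot process membrane. Its level was 1.12, -0.45, 0.12 and 0.81 in the wild-type mice, 2.45, 0.54, 0.76 and 1.58 in Fcgr2b-/- mice, 0.57, 0.81, 1.35 and 0.55 in double-deficient mice, and 1.23, 0.76, 0.01 and 0.17 in Sting gt/gt mice. As for Plce1, Fcgr2b-/- replicates 1 and 4 lay above every wild-type array and replicates 2 and 3 did not. The log2 difference between these groups was 0.93 (95% interval -0.00 to 1.87), and 0.56 without Fcgr2b-/- replicate 1. It was 1.19 and 0.30 within slides 1 and 2.

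Promoter sequence is shown because Ptpro and Plce1 varied together while Magi2 varied apart from them (Pearson's r over the 16 arrays with genotype means removed, 0.93 for Ptpro with Plce1 and -0.26 for Ptpro with Magi2). The RefSeq promoter table (GRCm38.p6) held 5 promoters of 4 of the 8 genes, and had no entry for Podxl, Synpo, Wt1 and Cdkn1c. The 250 bases before each start follow, all from the plus strand: Nphs1 at chr7:30459808-30460057, Ptpro at chr6:137252049-137252298, Magi2 at chr5:19226796-19227045 and chr5:19907268-19907517, and Plce1 at chr19:38523947-38524196. Capitals mark a motif match.
Nphs1: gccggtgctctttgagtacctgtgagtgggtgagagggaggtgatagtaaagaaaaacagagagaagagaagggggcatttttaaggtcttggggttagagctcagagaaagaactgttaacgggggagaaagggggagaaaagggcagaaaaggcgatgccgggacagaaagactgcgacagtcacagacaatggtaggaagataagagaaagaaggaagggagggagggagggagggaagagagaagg
Ptpro: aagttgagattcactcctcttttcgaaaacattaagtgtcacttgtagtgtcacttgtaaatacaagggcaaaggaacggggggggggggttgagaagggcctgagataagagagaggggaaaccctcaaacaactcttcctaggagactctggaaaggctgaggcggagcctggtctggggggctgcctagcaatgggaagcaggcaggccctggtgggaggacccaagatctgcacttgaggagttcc
Plce1: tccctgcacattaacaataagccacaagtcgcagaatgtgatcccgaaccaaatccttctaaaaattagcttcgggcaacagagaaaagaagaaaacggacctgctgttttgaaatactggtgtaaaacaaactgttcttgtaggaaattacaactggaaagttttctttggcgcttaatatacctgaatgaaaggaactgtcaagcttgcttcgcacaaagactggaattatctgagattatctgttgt
Magi2 first: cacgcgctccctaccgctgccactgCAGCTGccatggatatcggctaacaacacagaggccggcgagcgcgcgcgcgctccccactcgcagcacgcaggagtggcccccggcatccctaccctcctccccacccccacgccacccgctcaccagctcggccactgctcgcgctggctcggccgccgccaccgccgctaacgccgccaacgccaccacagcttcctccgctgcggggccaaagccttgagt
Magi2 second: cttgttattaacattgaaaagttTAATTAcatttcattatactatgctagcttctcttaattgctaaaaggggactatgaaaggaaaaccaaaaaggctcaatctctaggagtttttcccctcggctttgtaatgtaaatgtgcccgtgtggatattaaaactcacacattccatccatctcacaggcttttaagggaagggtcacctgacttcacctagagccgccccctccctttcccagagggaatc
The motifs searched on both strands were GCGGGGGC (WT1 and EGR family), TGCTGAC (Maf recognition element, core part), TAATTA (LIM homeodomain) and CAGCTG (an E-box), and none overlapped another. They are held by 4.28%, 3.79%, 4.84% and 13.1% of 32536 promoters of this length. The first Magi2 promoter held CAGCTG, 225 bases before the start, and the second held TAATTA, 227 bases before it. The other 3 promoters held none of these letters in this window. The share of G and C ran from 38.8% in Plce1 to 72% in the first Magi2 promoter, beside a median of 52.4% over all promoters.

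Podxl encodes podocalyxin, the sialoprotein that coats the foot processes. Its level was 0.15, -1.27, -1.02 and 0.18 in the wild-type mice, 0.33, -0.63, 0.26 and 0.62 in Fcgr2b-/- mice, 0.13, -0.40, 0.74 and 0.06 in double-deficient mice, and 0.41, 0.47, -0.38 and -1.04 in Sting gt/gt mice. Wild-type replicates 2 and 3 were again low, and Sting gt/gt replicate 4, high for Nphs1 and Magi2, was low here. The log2 difference between Fcgr2b-/- and wild-type mice was 0.64 (95% interval -0.28 to 1.55), and 0.38 without wild-type replicate 2. Podxl is also made by endothelial cells.

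Synpo encodes synaptopodin, an actin-binding protein of the foot process. Its brightest probe stood at 0.77, 0.30, 0.62 and 1.26 in the wild-type mice, 2.31, 1.44, 1.40 and 2.13 in Fcgr2b-/- mice, 1.24, 0.80, 1.85 and 1.18 in double-deficient mice, and 1.48, 1.39, 0.99 and 0.55 in Sting gt/gt mice. Each Fcgr2b-/- array was above each wild-type array, with replicates 1 and 4 highest, and the double-deficient and Sting gt/gt arrays overlapped both groups. The log2 difference between Fcgr2b-/- and wild-type mice was 1.08 (SE 0.32, 95% interval 0.41 to 1.75), with an unadjusted p of 0.0036 and an adjusted p of 0.755 in limma, so that it did not pass. Within slides 1 and 2 the difference was 1.42 and 0.46. The exact Mann-Whitney p was 0.0286, the smallest that 4 arrays against 4 can give.

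Synpo had 2 further probes, which the array files assign to another transcript of the gene, and they did not move with the brightest. In Fcgr2b-/- against wild-type mice they gave log2 differences of 0.09 and -0.43. On the third probe Fcgr2b-/- replicates 1 and 4 were low, at -1.76 and -1.55, where the brightest probe was high. With the mean of its 3 probes in place of the brightest, the Synpo difference was 0.25.

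**Figure D2:**
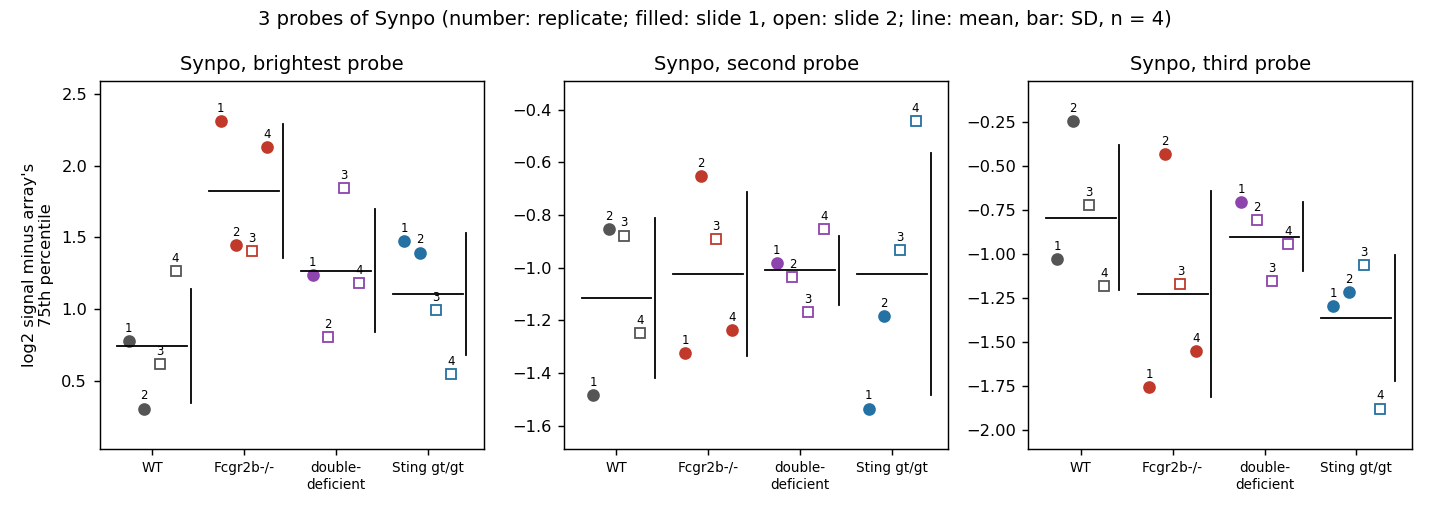
Levels of the 3 Synpo probes on each array (log2 intensity minus the array's 75th percentile, each panel on its own scale) by genotype, with replicate numbers, filled circles for slide 1 and open squares for slide 2, the mean as a line and the SD as a bar (4 arrays per group). Fcgr2b-/- lies above wild-type on the brightest probe (log2 difference 1.08), and the groups overlap on the second (0.09) and the third (-0.43).

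Wt1 encodes the zinc finger transcription factor that keeps podocytes differentiated. Its level was 0.64, -0.27, 0.56 and 1.20 in the wild-type mice, 1.71, 0.73, 1.15 and 1.51 in Fcgr2b-/- mice, 0.92, 0.13, 1.88 and 0.58 in double-deficient mice, and 1.102, 1.19, -0.09 and 0.76 in Sting gt/gt mice. All 4 Fcgr2b-/- arrays were above the wild-type mean, but only replicates 1 and 4 were above every wild-type array. The log2 difference was 0.74 (95% interval -0.13 to 1.61), and 0.47 without wild-type replicate 2. Within slides 1 and 2 it was 1.13 and 0.27.

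Cdkn1c encodes p57, a cell cycle inhibitor that marks podocytes which have left the cell cycle. Its level was 3.06, 2.66, 3.47 and 3.91 in the wild-type mice, 4.72, 4.46, 3.78 and 4.54 in Fcgr2b-/- mice, 4.20, 2.98, 4.23 and 3.69 in double-deficient mice, and 3.83, 4.10, 2.85 and 3.45 in Sting gt/gt mice. Only Fcgr2b-/- replicate 3 fell short of the highest wild-type array. The log2 difference of 1.099 was the largest of the 8 (SE 0.37, 95% interval 0.32 to 1.88), with an unadjusted p of 0.0089 and an adjusted p of 0.9996 in limma. Within slide 2, where a single Fcgr2b-/- array stands against 2 wild-type arrays, it was 0.08, and within slide 1, with 3 arrays against 2, it was 1.72.

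**Figure D3:**
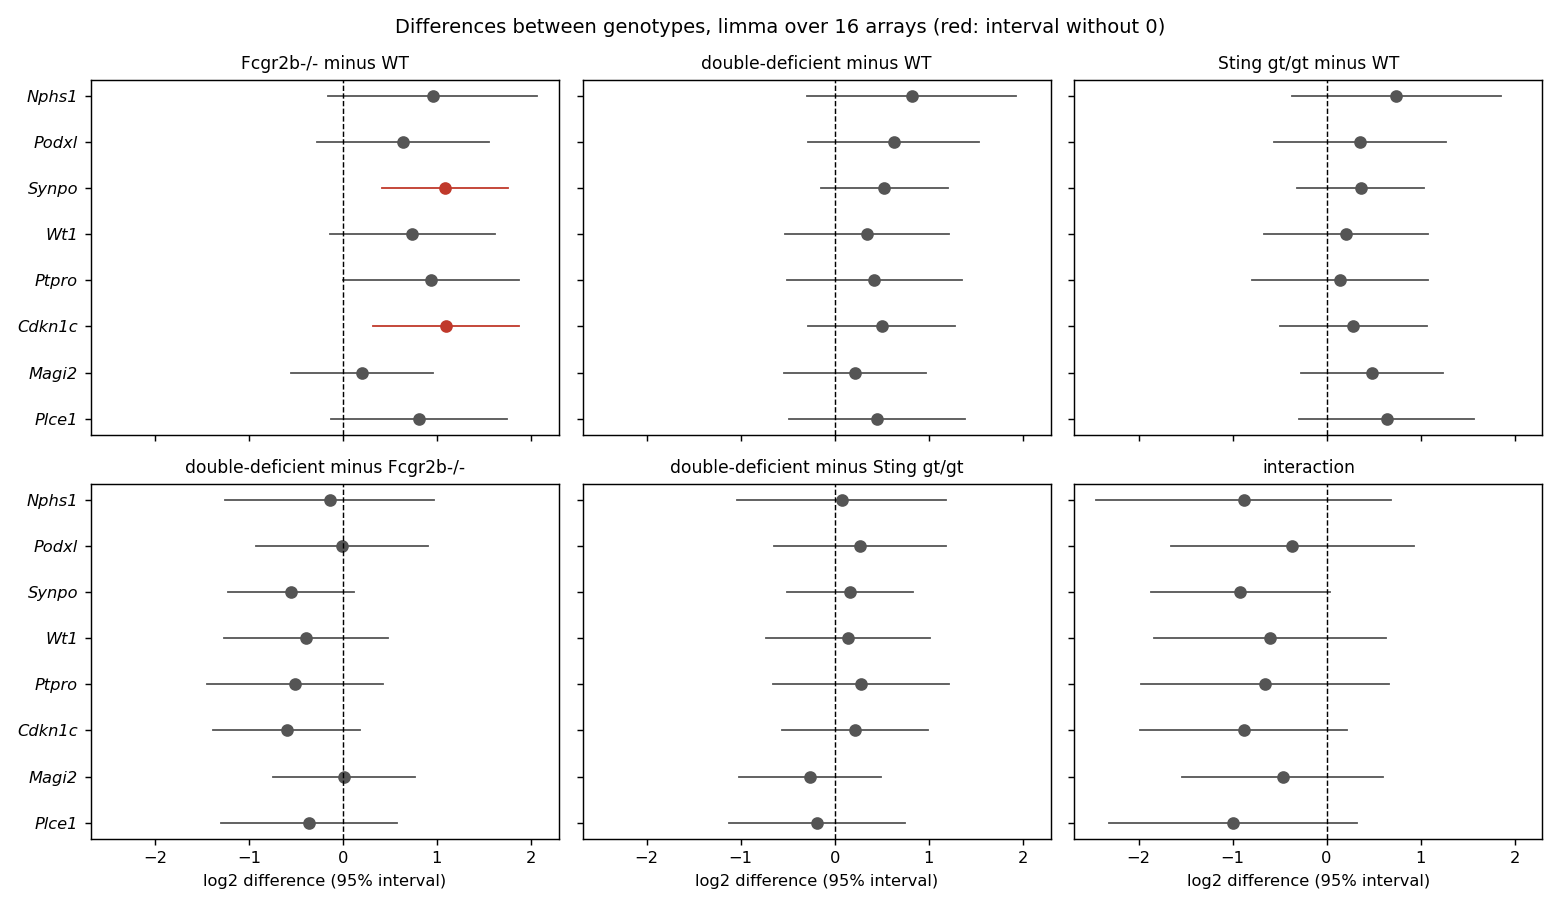
Log2 differences of the 8 podocyte genes in the 5 comparisons of genotypes and the interaction, as points with 95% intervals from limma over 16 arrays. The interval lies above 0 for Synpo (0.41 to 1.75) and Cdkn1c (0.32 to 1.88) in Fcgr2b-/- minus wild-type, shown in red, and holds 0 in every other case; before adjustment over all probes these are 2 of 8.

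In the double-deficient against the Fcgr2b-/- mice, which asks what the loss of Sting does in mice without Fcgr2b, 7 of 8 genes had a lower mean and Magi2 a difference of 0.01. Cdkn1c differed by -0.60 (95% interval -1.38 to 0.18), Synpo by -0.55 (95% interval -1.23 to 0.12) and Ptpro by -0.51 (95% interval -1.45 to 0.42), while Podxl was nearly level at -0.01 (95% interval -0.93 to 0.90). The median was -0.38, beside 0.06 over all probes. For all 8 genes the groups overlapped and the interval held 0. limma called 0 of 8, beside 0% of all probes, and 0 of 8 had an unadjusted p under 0.05, beside 1.81%. Groups did not overlap for 0 of 8, beside 1.02% of all probes. The exact Mann-Whitney test at 2-fold, unadjusted, counted 0 of 8, beside 0.115% of all probes (41). Leaving out Fcgr2b-/- replicate 1 took Ptpro to -0.14, leaving out Fcgr2b-/- replicate 2 took it to -0.78, and leaving out double-deficient replicate 2 took Cdkn1c to -0.33. The median was -0.09 and -0.57 without Fcgr2b-/- replicates 1 and 2, and -0.24, -0.60 and -0.22 without double-deficient replicates 2, 3 and 4. With the mean of a gene's probes in place of the brightest the median was -0.24, and Synpo was at -0.07. The other Synpo probes gave 0.02 and 0.33, opposite in sign to the brightest. The other tested probes of Nphs1 and Plce1 gave -0.27 and -0.17, with the sign of the brightest. Podxl had the opposite sign when arrays were scaled by their median (0.03), which moved every probe by 0.04, and Magi2 with quantile normalization (-0.01).

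Against wild-type mice, all 8 genes had a higher mean in the double-deficient mice, from 0.22 for Magi2 to 0.82 for Nphs1 (95% interval -0.29 to 1.93). Synpo differed by 0.53 (95% interval -0.14 to 1.20) and Cdkn1c by 0.50 (95% interval -0.28 to 1.28). The other Synpo probes gave 0.11 and -0.11, and with the mean of its probes Synpo was at 0.18. The other tested probes of Nphs1 and Plce1 gave 0.73 and 0.26, with the sign of the brightest. The median was 0.48, beside 0.00 over all probes, and 0.26 without wild-type replicate 2. Without double-deficient replicate 3, Nphs1 differed by 0.50 and Synpo by 0.34. Cdkn1c differed by 0.29 without wild-type replicate 2 and by 0.77 without double-deficient replicate 2. Magi2 differed by -0.06, 0.40, 0.44 and 0.03 without wild-type replicates 1 and 4 and double-deficient replicates 2 and 3. limma called 0 of 8, beside 0% of all probes, and 0 of 8 had an unadjusted p under 0.05, beside 0.424%. Groups overlapped for all 8, while they did not for 0.547% of all probes, and the unadjusted exact Mann-Whitney test at 2-fold counted 0 of 8, beside 0.177% (63) of all probes.

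The Sting gt/gt mice, which show the loss of Sting with Fcgr2b intact, also had a higher mean than wild-type mice for all 8 genes, but under scaling by the median, which moved every probe by -0.24, Wt1 was at -0.04 and Ptpro at -0.10. The log2 differences ran from 0.14 for Ptpro to 0.74 for Nphs1 (95% interval -0.37 to 1.85), with Plce1 at 0.64 (95% interval -0.29 to 1.57) and Magi2 at 0.48 (95% interval -0.28 to 1.24). The second probe of Nphs1 gave -0.07, where the brightest gave 0.74. Without Sting gt/gt replicate 4, whose Fcgr2b level lay among the Fcgr2b-deficient arrays, Nphs1 was at 0.32 and Magi2 at 0.18, so that the size of both rested on that array. Nphs1 was at 1.15 without Sting gt/gt replicate 3, Magi2 at 0.20 without wild-type replicate 1 and Plce1 at 0.37 without wild-type replicate 2. Ptpro, the smallest, was at 0.38, -0.14, 0.05 and 0.28 without wild-type replicates 1 to 4, and at -0.08, 0.07, 0.32 and 0.27 without Sting gt/gt replicates 1 to 4.

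For Sting gt/gt against wild-type mice the median of the 8 genes was 0.36, beside 0.00 over all probes, and it was 0.12 under scaling by the median, where all probes had a median of -0.24. limma called 0 of 8, beside 0% of all probes, and 0 of 8 had an unadjusted p under 0.05, beside 3.76%. Groups overlapped for all 8, while they did not for 2.04% of all probes, and the unadjusted exact Mann-Whitney test at 2-fold counted 0 of 8, beside 0.356% (127) of all probes. Without Sting gt/gt replicate 4 the median was 0.32. It was 0.16 without wild-type replicate 2, 0.56 without wild-type replicate 4, and 0.22 and 0.21 without Sting gt/gt replicates 1 and 2. The 3 comparisons with wild-type mice share the same 4 control arrays, of which replicate 2 was the lowest of all 16 for 6 of the 8 genes. In Sting gt/gt against wild-type mice genes of other lists, described below, moved as well. Of the mesangial and renin lineage 7 of 8 had a higher mean (median 0.81), and of the glomerular endothelium 9 of 10 (median 0.58). Leukocyte genes had 8 of 9 higher (median 0.50) and early stress genes 10 of 10 (median 0.45). Of the proximal tubule genes 11 of 12 had a lower mean (median -0.33). The part of these lists in the result was not tested.

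Between double-deficient and Sting gt/gt mice, which differ in Fcgr2b and in strain, 6 genes had a higher and 2 a lower mean in the double-deficient mice. The differences ran from -0.26 for Magi2 (95% interval -1.02 to 0.49) to 0.28 for Ptpro (95% interval -0.66 to 1.21), with a median of 0.15 beside 0.01 over all probes. limma called 0 of 8, beside 0% of all probes, and 0 of 8 had an unadjusted p under 0.05, beside 3.05%. Groups overlapped for all 8, while they did not for 2.13% of all probes, and the unadjusted exact Mann-Whitney test at 2-fold counted 0 of 8, beside 0.48% (171) of all probes. Leaving out arrays moved this median between -0.11, without double-deficient replicate 3, and 0.30, without double-deficient replicate 2. Without Sting gt/gt replicates 1 to 4 it was 0.28, 0.28, -0.08 and 0.09. It was 0.05 with array brightness as a covariate, 0.10 in the authors' table and 0.28 under scaling by the median, which moved every probe by 0.13. The second Nphs1 probe gave 0.80, where the brightest gave 0.08. Magi2 was at 0.04 without Sting gt/gt replicate 4, at -0.45 without replicate 1 of that group, and at -0.04 and -0.45 without double-deficient replicates 2 and 3. Ptpro was at 0.51, 0.10 and 0.15 without Sting gt/gt replicates 1, 3 and 4, and at 0.10 without double-deficient replicate 3.

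The interaction is the difference made by Sting loss in Fcgr2b-deficient mice minus that in Fcgr2b-intact mice. It was negative for all 8 genes, from -0.37 for Podxl to -0.998 for Plce1 (95% interval -2.32 to 0.32), with Synpo at -0.92 (95% interval -1.87 to 0.03) and Cdkn1c at -0.88 (95% interval -1.99 to 0.22). The median was -0.77, beside 0.03 over all probes. limma called 0 of 8, beside 0% of all probes, and 0 of 8 had an unadjusted p under 0.05, beside 6.27%. A Mann-Whitney test has no form for the interaction. The interaction reuses the Fcgr2b-/- and wild-type arrays compared above, so its sign is not separate from that comparison. The Fcgr2b-deficient and Fcgr2b-intact mice in it also differ in strain. Other lists, described below, also ran negative, with 9 of 9 leukocyte genes (median -1.46) and 10 of 10 early stress genes (median -1.12). So did 10 of 12 injury genes (median -1.16) and 7 of 8 mesangial and renin lineage genes (median -1.12). Of the proximal tubule genes 11 of 12 were positive (median 0.91). The part of these lists in the result was not tested.

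The negative sign of the interaction held for the brightest probe of each podocyte gene over all 16 arrays, but other probes and settings gave other values. The second Synpo probe gave -0.08 and the third 0.90, where the brightest gave -0.92. The second Nphs1 probe gave -0.20 beside -0.88, which was -0.46 without Sting gt/gt replicate 4 and -0.55 without Fcgr2b-/- replicate 1, and the second Plce1 probe -0.58 beside -0.998. The median of -0.77 was -0.40 with Y-linked signal as a covariate and -0.49 under scaling by the median, which moved every probe by 0.28. With 1 array left out the median ran from -0.98 to -0.54. Plce1 was at -0.61 without Fcgr2b-/- replicate 1. Podxl was at -0.58, -0.11, -0.19 and -0.59 without wild-type replicates 1 to 4, at -0.62 and -0.21 without Fcgr2b-/- replicates 2 and 4, at -0.19 and -0.57 without double-deficient replicates 2 and 3, and at -0.19, -0.16 and -0.67 without Sting gt/gt replicates 1, 2 and 4.

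Seen array by array, the 8 genes were highest on Fcgr2b-/- replicates 1 and 4 and on double-deficient replicate 3, and lowest on wild-type replicate 2. The median of the 8 genes, as a log2 difference from the wild-type mean, was 0.32, -0.70, -0.09 and 0.60 on the wild-type arrays, 1.51, 0.20, 0.56 and 1.11 on the Fcgr2b-/- arrays, 0.50, 0.08, 1.03 and 0.33 on the double-deficient arrays, and 0.71, 0.71, -0.24 and 0.20 on the Sting gt/gt arrays. Fcgr2b-/- replicate 1 held the highest value of all 16 arrays for 4 genes, Synpo, Ptpro, Cdkn1c and Plce1. Without this array the median difference between Fcgr2b-/- and wild-type mice was 0.58, and without wild-type replicate 2 it was 0.60.

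The slides gave different sizes. The median difference between Fcgr2b-/- and wild-type mice was 1.14 within slide 1 (3 arrays against 2) and 0.28 within slide 2 (1 against 2), and 0.79 with the slide as a block. For Sting gt/gt against wild-type it was 0.93 within slide 1 and -0.23 within slide 2, with 2 arrays against 2 on each, and the interaction was -1.42 and 0.13. For double-deficient against Fcgr2b-/- mice it was -0.43 and -0.10, for double-deficient against wild-type mice 0.69 and 0.31, and for double-deficient against Sting gt/gt mice -0.22 and 0.50. The scan time changed with the slide.

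Within a slide the size and the sign of single genes often differed from those over all arrays. In Fcgr2b-/- against wild-type mice, slides 1 and 2 gave 1.42 and 0.46 for Synpo, 1.72 and 0.08 for Cdkn1c, 1.15 and 0.04 for Plce1, 1.19 and 0.30 for Ptpro, 1.13 and 0.27 for Wt1, 1.07 and 0.73 for Nphs1, and 0.67 and 0.68 for Podxl, where slide 2 held only replicate 3 of the Fcgr2b-/- mice. Within slide 2, Magi2 was at -0.11 in Fcgr2b-/- against wild-type mice, and in Sting gt/gt against wild-type mice Podxl was at -0.29, Synpo at -0.17, Wt1 at -0.55, Ptpro at -0.37 and Cdkn1c at -0.54. In double-deficient against wild-type mice Wt1 was at -0.02, Cdkn1c at -0.06 and Magi2 at -0.19 there. All of these were positive within slide 1, and the cause was not tested.

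The same holds for double-deficient against Fcgr2b-/- mice, where slide 2 gave 0.15 for Nphs1, 0.14 for Ptpro, 0.25 for Plce1 and -0.08 for Magi2, and slide 1 gave 0.02 for Podxl. In double-deficient against Sting gt/gt mice slide 1 gave -0.22 for Nphs1, -0.31 for Podxl, -0.20 for Synpo, -0.22 for Wt1, -0.43 for Ptpro and 0.12 for Magi2, and slide 2 gave 0.13 for Plce1. The interaction within slide 2 was positive for 6 of 8 genes, with Podxl at 0.16, Synpo at 0.04, Wt1 at 0.27, Ptpro at 0.51, Cdkn1c at 0.40 and Plce1 at 0.10. Within slide 1 it was negative for all 8.

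Array brightness moved with the podocyte genes too. The 75th percentile intensity was 534, 338, 339 and 567 on the wild-type arrays, 509.6, 276, 498 and 601 on the Fcgr2b-/- arrays, 448, 348, 578 and 496 on the double-deficient arrays, and 537, 657, 319 and 279 on the Sting gt/gt arrays. On the 6 dimmest arrays, up to 348, the median of the 8 genes lay between -0.70 and 0.20 from the wild-type mean, and on the other 10 between 0.32 and 1.51. The mean of the 8 genes followed log2 brightness over the 16 arrays with genotype means removed (Pearson's r 0.74, Spearman's rho 0.76, given as a description). With brightness as a covariate, an alternative chosen after seeing the data, the median difference between Fcgr2b-/- and wild-type mice was 0.81, and that between double-deficient and Fcgr2b-/- mice -0.40.

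Y-linked transcripts were present on 6 arrays, and the labels give no sex. The summed signal of the 4 Y-linked genes, in units of the array's 75th percentile, was 7.38, 2.87, 0.0478 and 0.0287 on the wild-type arrays, 0.0260, 0.0572, 2.80 and 0.0295 on the Fcgr2b-/- arrays, 0.0372, 6.60, 0.0236 and 3.13 on the double-deficient arrays, and 0.0297, 0.0253, 2.96 and 0.0428 on the Sting gt/gt arrays. Eif2s3y was the brightest of them, and it differed by -2.28 between Fcgr2b-/- and wild-type mice, with Ddx3y at -1.74 and Kdm5d at -1.61, each above background on 1 of 4 and 2 of 4 of these arrays. These 3 differences rest on those arrays, and without wild-type replicate 1 they were -0.65, -0.55 and -0.54. Their correlation with the mean of the 8 podocyte genes, genotype means removed, ran from -0.70 to -0.67 over the 16 arrays. With Y-linked signal as a covariate the median difference was 0.70 for Fcgr2b-/- against wild-type mice, -0.19 for double-deficient against Fcgr2b-/- mice, and 0.24 for Sting gt/gt against wild-type mice, where Wt1 turned to -0.04. For double-deficient against Sting gt/gt mice it was 0.33 and for the interaction -0.40, beside 0.15 and -0.77 without the covariate.

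Within genotypes most of the 8 genes varied together. Over the 16 arrays with genotype means removed, Pearson's r of the 28 pairs ran from -0.26 (Ptpro with Magi2) to 0.93 (Ptpro with Plce1). Each gene's r with the mean of the other 7 was 0.95 for Wt1, 0.82 for Synpo, 0.80 for Ptpro, 0.80 for Plce1, 0.73 for Cdkn1c, 0.70 for Nphs1 and 0.67 for Podxl, but 0.09 for Magi2. Spearman's rho was 0.97 for Wt1 and 0.13 for Magi2. Arrays share their brightness and their slide across all genes, so these values are a description. Nphs1 varied most within genotypes (SD 0.79) and Synpo least (SD 0.43).

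**Figure D4:**
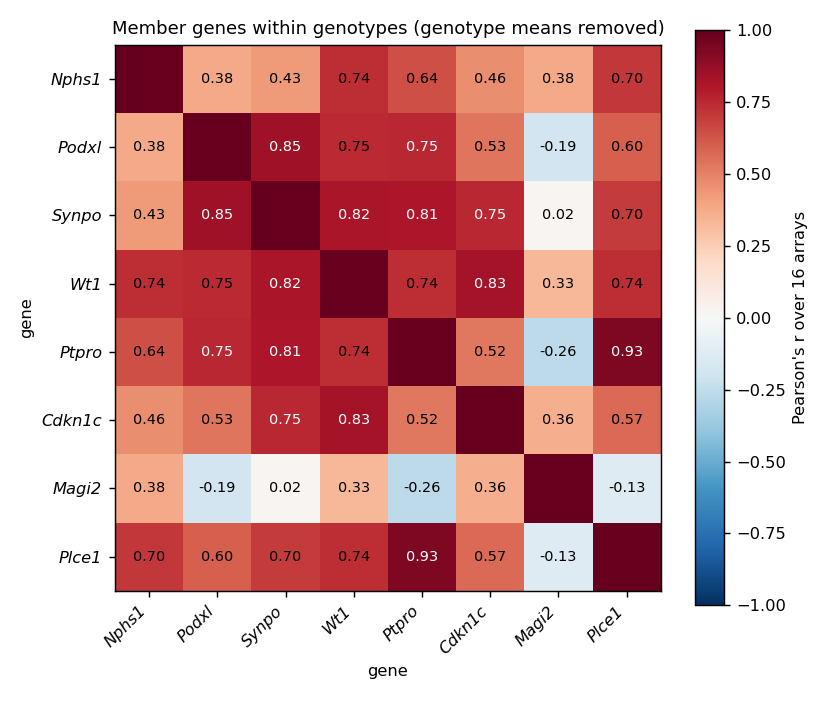
Pearson's r of each pair of the 8 podocyte genes over 16 arrays, after the mean of each genotype was removed; both axes list the genes and the colour runs from -1 to 1. The 7 genes other than Magi2 have r from 0.38 to 0.93 among themselves, and Magi2 has r from -0.26 to 0.38 with them.

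Of 16385 other named genes tested with a value on every array, the 10 that varied most like the mean of the 8 were Ikzf2 (r 0.95), Unc13b (0.94), Marveld1 (0.93), Mpzl1 (0.93), Zfp862-ps (0.92), Cdon (0.91), Plat (0.91), Sema5a (0.90), Rassf5 (0.89) and Tspan2 (0.89). None of these 10 was on the wider podocyte list, of which 1 of 58 genes was among the first 100. Plat was on the glomerular endothelium list. Of the wider podocyte list 24 of 58 genes (41.4%) had r over 0.5, beside 2791 of 16385 (17.0%) of all named genes. The share was higher on 4 other lists, with 5 of 8 genes of the mesangium, 7 of 12 of injury, 5 of 9 of leukocytes and 5 of 10 of the early stress response. It was 4 of 10 for the glomerular endothelium and 2 of 6 each of the parietal epithelium and fat. None passed 0.5 among the genes of the proximal tubule, the thick limb to collecting duct, red cells, the adrenal gland or the Y chromosome. The shares were not tested against each other. On the wider podocyte list r was 0.79 for Pdpn, 0.79 for Foxd1, 0.78 for Coro2b and 0.78 for Crb2, and -0.55 for Pard3 and -0.51 for Lmx1b. These 6 were chosen after their values were seen.

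The wider list holds 59 further genes of the podocyte, its slit diaphragm and its basement membrane. All but Kirrel2, a relative of nephrin never above background, were tested, and Arhgdia was the brightest. In Fcgr2b-/- against wild-type mice 41 of 58 had a higher and 17 a lower mean, with a median of 0.32 beside -0.06 over all probes. limma called 0 of them, and at an unadjusted p under 0.05 there were 7 higher and 1 lower, beside 939 higher and 253 lower (3.35%) of all probes. The smallest p belonged to Nes (nestin, an intermediate filament protein of podocytes), with a difference of 1.02 (95% interval 0.31 to 1.73, limma adjusted p = 0.976). Foxd1, a transcription factor of the kidney stroma and early podocytes, differed by 1.53 (95% interval 0.38 to 2.69) and was above background on 9 of 16 arrays, among them 3 of 4 Fcgr2b-/- and 1 of 4 wild-type arrays, so this size is not well measured. Pdpn, podoplanin of the podocyte surface, differed by 1.13 (95% interval 0.19 to 2.07).

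Nes stood at 1.53, 0.91, 1.02 and 1.47 in the wild-type mice and at 3.20, 1.75, 1.63 and 2.44 in the Fcgr2b-/- mice. These groups did not overlap, and replicates 1 and 4 were again the highest. In the double-deficient mice Nes ran from 1.43 to 1.93, with a log2 difference of -0.61 from Fcgr2b-/- mice (95% interval -1.32 to 0.09) and of 0.41 from wild-type mice (95% interval -0.30 to 1.12). The first was -0.30 without Fcgr2b-/- replicate 1.

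In the other comparisons limma called 0 of the 58 as well. Double-deficient against Fcgr2b-/- mice had 17 higher and 41 lower, with a median of -0.23 and 0 at an unadjusted p under 0.05, beside 1.81% of all probes. Pdpn was at -0.90 (95% interval -1.84 to 0.04) and Foxd1 at -1.04 (95% interval -2.20 to 0.12), but Pdpn was at -0.57 without Fcgr2b-/- replicate 1 and Foxd1 at -0.43 without double-deficient replicate 2. Double-deficient against wild-type mice had 40 higher and 18 lower (median 0.09, 0 at an unadjusted p under 0.05, beside 0.424% of all probes), with Crb2, an apical polarity protein, at 0.76 (95% interval -0.24 to 1.75) and Cldn5, a tight junction protein, at 0.37 (95% interval -0.33 to 1.06). Without double-deficient replicate 3 these were 0.38 and 0.19, and Cldn5 was at 0.58 without double-deficient replicate 2 and at 0.18 and 0.55 without wild-type replicates 2 and 4. Sting gt/gt against wild-type mice had 41 higher and 17 lower (median 0.23, with 2 higher and 2 lower at an unadjusted p under 0.05, beside 657 and 682 of all probes), among them Enpep, an aminopeptidase, at -0.88 (95% interval -1.61 to -0.16) but -0.48 without Sting gt/gt replicate 4, Ildr2 at -0.77 (95% interval -1.47 to -0.06) and Lamb2, the laminin chain of the glomerular basement membrane, at 0.79 (95% interval 0.05 to 1.53). Double-deficient against Sting gt/gt mice had 23 higher and 35 lower (median -0.12, with 1 higher and 1 lower at an unadjusted p under 0.05, beside 580 and 505 of all probes), with Enpep at 0.89 (95% interval 0.17 to 1.61), Efnb1 at -0.74 (95% interval -1.46 to -0.01) and Col4a3, a collagen chain of the basement membrane, at -0.57 (95% interval -1.22 to 0.08). Without Sting gt/gt replicate 4 these were 0.49, -0.45 and -0.31, and Efnb1 was at -0.46 without double-deficient replicate 2. The interaction had 16 positive and 42 negative (median -0.56, with 2 positive and 4 negative at an unadjusted p under 0.05, beside 1285 and 949 of all probes), with Ildr2 at 1.37 (95% interval 0.37 to 2.36), Nes at -1.16 (95% interval -2.17 to -0.16) and Efnb1 at -1.17 (95% interval -2.19 to -0.16). Scaling by the median moved every probe by -0.12 in double-deficient and by -0.24 in Sting gt/gt against wild-type mice. In double-deficient against Sting gt/gt mice it moved them by 0.13. Each shift was against the sign of the list's median there and larger than it. The counts of higher and lower genes in these comparisons thus depend on the scaling.

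Markers of other cells moved with the podocyte genes on Fcgr2b-/- replicates 1 and 4, and their part in the result was not tested. limma called 0 genes of these lists in all 6 contrasts. In Fcgr2b-/- against wild-type mice, 7 of 9 tested leukocyte genes had a higher mean (median 1.89, 5 at an unadjusted p under 0.05), 10 of 12 injury genes (median 0.91, 5), 6 of 8 mesangial and renin lineage genes (median 0.72, 2) and 9 of 10 early stress genes (median 0.70, 5). Proximal tubule genes ran the other way, with 12 of 12 lower and a median of -0.43, 0 of them at an unadjusted p under 0.05. Over all probes 3.35% had an unadjusted p under 0.05, 939 higher and 253 lower.

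In double-deficient against Fcgr2b-/- mice the same lists ran in the opposite direction, and both comparisons share the 4 Fcgr2b-/- arrays. All 10 early stress genes had a lower mean (median -0.71, 3 at an unadjusted p under 0.05), as had 10 of 12 injury genes (median -0.82, 4), 7 of 9 leukocyte genes (median -1.15, 2) and 6 of 8 mesangial and renin lineage genes (median -0.33, 0). All 12 proximal tubule genes had a higher mean (median 0.43, 1 at an unadjusted p under 0.05). Over all probes 1.81% had an unadjusted p under 0.05, 233 higher and 412 lower. Whether these cells bear on the lower means of the podocyte genes was not tested.

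Of the genes that the naming rule gives for these lists, Ptprc differed between Fcgr2b-/- and wild-type mice by 1.89 (95% interval 0.09 to 3.69), Cd3e by 0.36 and Itgam by -0.32. Havcr1 differed by 2.75, but it was above background on only 10 of 16 arrays, 3 of 4 in each of these groups, and its wild-type level lay near the background, so the size of this difference is not well measured. Lcn2 differed by 2.07 (95% interval 0.26 to 3.88) and Spp1 by 0.80. Fos differed by 2.33 (95% interval 0.72 to 3.94), Jun by 0.90 (95% interval 0.07 to 1.73) and Fosb by 0.23, with Fos and Fosb above background on 3 of the 4 wild-type arrays. Serpine2 differed by 1.497 (95% interval 0.26 to 2.73), Pdgfrb by 0.90 and Itga8 by 0.54, while the proximal tubule genes Slc34a1, Lrp2 and Kap differed by -0.51, -0.30 and -0.23. None of these passed the test. Leaving out 1 array or another moved each of them but Havcr1, Fos, Jun and Lrp2 by over 1.5 times. Without Fcgr2b-/- replicate 1, Ptprc was at 1.21, Serpine2 at 0.93, Spp1 at 0.42, Pdgfrb at 0.23, Itga8 at 0.04 and Slc34a1 at 0.08, and without replicate 4 of that group Lcn2 was at 1.26.

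The summed leukocyte signal, in units of the array's 75th percentile, was 73.4, 45.7, 29.3 and 40.1 on the wild-type arrays, 97.8, 29.1, 49.3 and 65.9 on the Fcgr2b-/- arrays, 26.3, 73.7, 27.7 and 41.8 on the double-deficient arrays, and 50.1, 39.3, 48.6 and 228 on the Sting gt/gt arrays. Itgam was the brightest gene of this list, with a mean level of 5.15 in wild-type and 4.83 in Fcgr2b-/- mice, so it weighs heavily in these sums. Cd79a, which defines B cells, was never above background. The study states that the kidneys were not perfused, so blood and kidney leukocytes cannot be told apart here. Ptprc, the common leukocyte antigen, stood at 3.56 and 2.55 on Fcgr2b-/- replicates 1 and 4 and at -0.18 and 0.08 on replicates 2 and 3. As a median over the list, these 4 arrays lay 3.03, 0.61, 0.47 and 2.94 above the wild-type mean. The wild-type arrays were at 1.47, -0.93, -0.58 and -0.05, the double-deficient ones at 0.27, 1.39, 0.62 and 0.06, and the Sting gt/gt ones at 1.37, 0.42, 0.18 and 0.20. The sum of 228 on Sting gt/gt replicate 4 was thus not a mark of the whole list, but came mostly from Itgam, at 7.78 there.

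The summed injury signal was 203, 280, 406 and 406 on the wild-type arrays, 693, 538, 249 and 608 on the Fcgr2b-/- arrays, 449, 237, 398 and 239 on the double-deficient arrays, and 270, 398, 176 and 290.4 on the Sting gt/gt arrays, with Spp1 the brightest. Havcr1, a marker of the injured proximal tubule, stood at 1.002, -4.05, -3.24 and -0.00 on the Fcgr2b-/- arrays and at -3.84 or lower on the wild-type arrays. Lcn2, a marker of tubular stress, stood at 3.33, -0.22, -0.90 and 3.96 on the Fcgr2b-/- arrays. For both genes replicates 1 and 4 were far above replicates 2 and 3.

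The summed mesangial signal was 21.1, 8.76, 14.6 and 20.2 on the wild-type arrays, 60.7, 13.7, 15.2 and 35.7 on the Fcgr2b-/- arrays, 15.2, 19.4, 21.7 and 13.1 on the double-deficient arrays, and 32.0, 19.5, 17.5 and 32.0 on the Sting gt/gt arrays, with Serpine2 the brightest. The summed early stress signal was 19.2, 17.1, 23.1 and 27.3 on the wild-type arrays, 42.1, 22.6, 23.6 and 40.7 on the Fcgr2b-/- arrays, 20.2, 15.2, 24.7 and 22.4 on the double-deficient arrays, and 28.2, 23.7, 30.8 and 36.0 on the Sting gt/gt arrays, with Jun the brightest. Both lists were highest on Fcgr2b-/- replicate 1. The summed proximal tubule signal was lowest there, at 1030.3, against 1563 to 2416 on the wild-type arrays, with Kap the brightest gene.

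**Figure D5:**
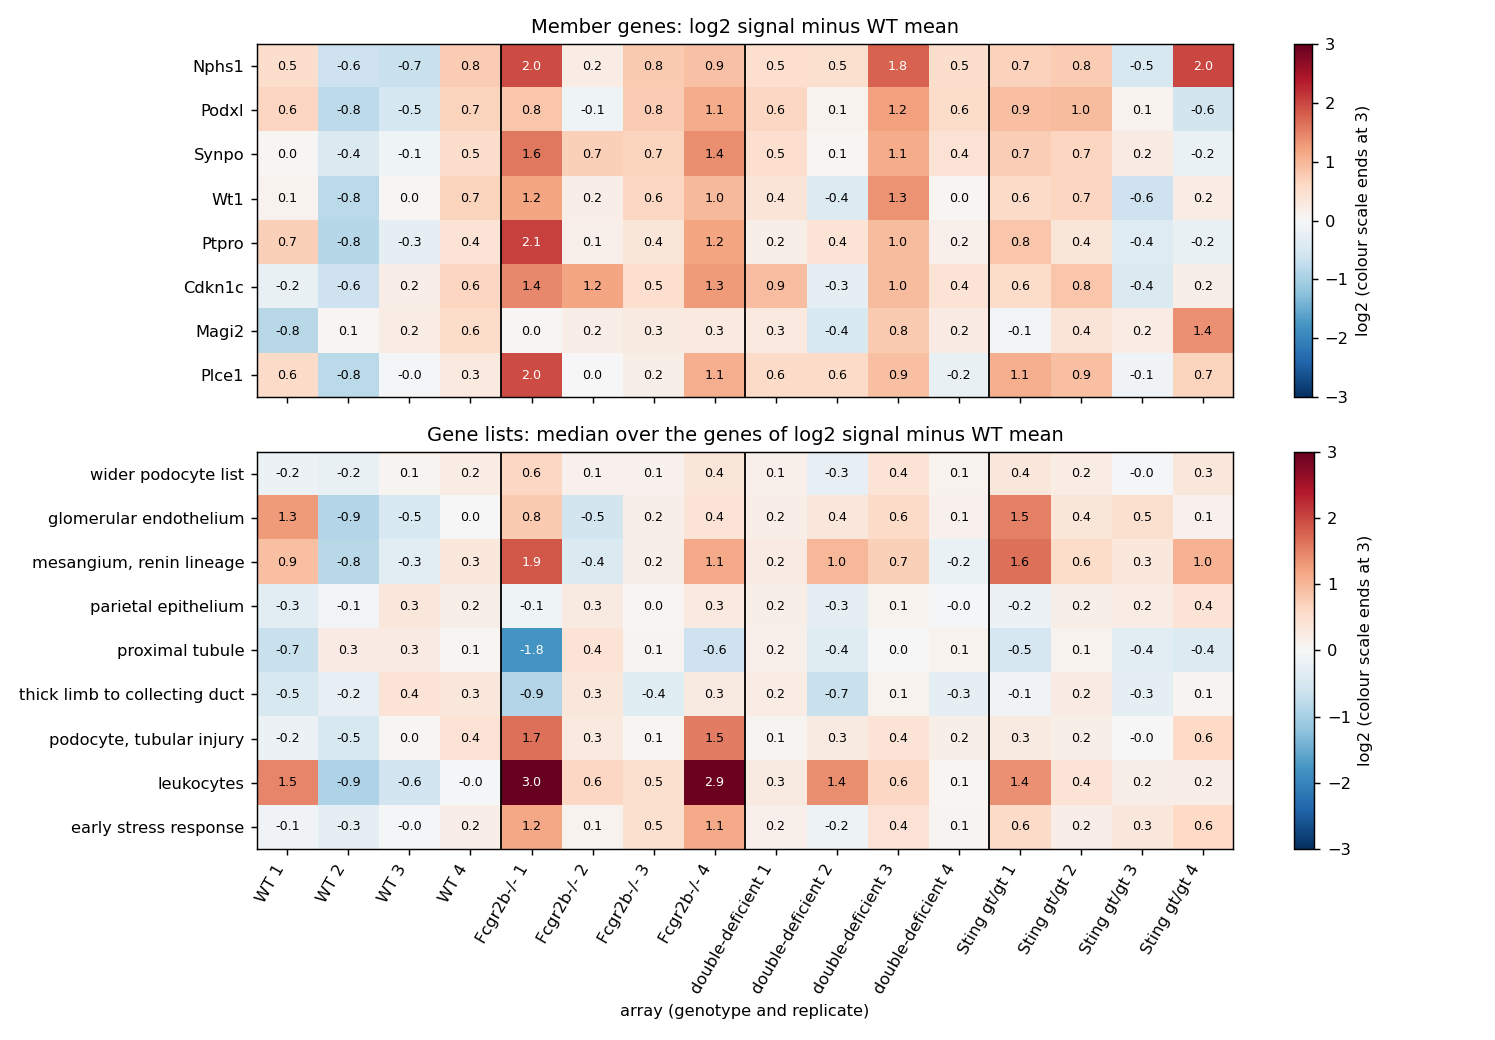
Upper panel, the 8 podocyte genes on each of 16 arrays as log2 level minus the wild-type mean. Lower panel, the median of the same quantity over each of 9 gene lists. Fcgr2b-/- replicates 1 and 4 are high for the podocyte genes (medians 1.51 and 1.11) and for leukocytes (3.03 and 2.94). For the proximal tubule they are at -1.79 and -0.62, beside -0.67 on wild-type replicate 1.

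The other lists are given for the same comparison. The median difference between Fcgr2b-/- and wild-type mice was 0.13 for 10 genes of the glomerular endothelium (Emcn the brightest), 0.19 for 6 of the parietal epithelium (Krt8), -0.06 for 12 of the thick limb to collecting duct (Umod), -0.26 for 5 of red cells (Hba-a1), -0.51 for 6 of fat (Fabp4) and 0.08 for 4 of the adrenal gland (Hsd3b1). Only the thick limb to collecting duct list held genes at an unadjusted p under 0.05, 2 of them, both lower. Single genes differed by 0.08 (Emcn), 0.29 (Ehd3), -0.01 (Krt8), 0.37 (Cldn1), 1.098 (Akap12), 0.12 (Umod), -0.06 (Slc12a1), -0.26 (Hba-a1), -0.49 (Hbb-bt), 0.05 (Fabp4), -0.38 (Adipoq), -0.83 (Plin1), -0.58 (Hsd3b1) and 0.18 (Star), all with 95% intervals that held 0. Plin1 was above background on 1 of 4 Fcgr2b-/- and 2 of 4 wild-type arrays, and Star on 3 and 2. Each of these 14 values moved by over 1.5 times or turned with 1 array or another left out, Akap12 to 0.55 without Fcgr2b-/- replicate 1. The glomerular endothelium, the neighbour of the podocyte across the basement membrane, had a summed signal of 22.2 to 142 on the wild-type arrays and of 28.2 to 71.8 on the Fcgr2b-/- arrays. Cyp11b1, which defines the adrenal cortex, was never above background.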

How the data were processed

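Kidney RNA of 16 mice, 4 of each genotype, was measured on single-colour arrays. The authors deposited scanner files written by Agilent Feature Extraction 11.0, whose processed values are intensities, and their own log2 table, in which arrays with the same replicate number share a distribution.

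From the scanner files, controls and outlier spots were dropped, the spots of a probe were averaged, and the array's 75th percentile was subtracted from log2 intensity (numpy 2.4.6 and pandas 2.3.3 in Python 3.11.15). Tested probes, those well above background on 4 or more of 16 arrays, were fitted with limma 3.58.1 in R 4.3.3 (statmod 1.5.0), with 4 genotype means and Benjamini-Hochberg adjustment over 35629 probes. A probe was called at an adjusted p under 0.05 and at least 2-fold. The fit was tested on simulated data. No score over the genes was tested. The array headers name the build mm9, so RefSeq tables of GRCm38.p6 were used only for symbols, which matched 58.3% of the probes, and for promoter sequence.

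The podocyte genes and all 13 further lists, namely wider podocyte, glomerular endothelium, mesangium, parietal epithelium, proximal tubule, thick limb to collecting duct, injury, leukocytes, red cells, fat, adrenal gland, Y-linked and early stress response, were chosen with earlier results of these data known. Genes named are the 8 podocyte genes, 3 genes of the wider list with the smallest p in each contrast, the brightest and the first 2 genes of each other list, and the 10 genes that vary most like the podocyte genes. Outside this rule, genes of a list never above background and 3 genes of the wider list with high or low correlation are named. A gene is given by its brightest probe.

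Alternatives were normexp with an offset of 50 (on the median signal of a spot, since the files hold no mean signal), scaling by the median or by quantile normalization, the authors' log2 table, other filters, fits restricted to the compared groups, no fold threshold, the exact Mann-Whitney test, robust eBayes with a trend, the mean of a gene's probes, blocks by slide, by replicate number or by the leading number in the animal label (a random effect, consensus correlation 0.827), covariates for Y-linked signal or array brightness, and leaving out every array once. That leading number was shared by wild-type replicates 3 and 4, by Fcgr2b-/- replicate 3 and double-deficient replicate 4, and by Fcgr2b-/- replicate 4 and double-deficient replicate 3. Plots were drawn with matplotlib 3.10.9, and ranks were correlated with scipy 1.17.1.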

Additional observations from a re-analysis of the deposited data

Results flagged for a closer look

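Of 100 groups of 4 arrays examined, 3 had an array set apart from the other 3, where the gap to the nearest array took up most of the group's range, beyond the critical value for 4 arrays. Chance gives about 1 such group in 20.

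Nphs1 in the double-deficient mice was set apart by its highest array. Replicate 3 stood at 0.99 and the others at -0.26 to -0.31, so that the gap was 0.962 of the range. The same array gave the highest value of all 16 for Podxl and Wt1.

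The median of the fat list in the Fcgr2b-/- mice was set apart by replicate 1, at 3.22 above the wild-type mean against -1.36 or lower on the others, a gap of 0.852 of the range. Fabp4 was its brightest gene. The list stood as high on wild-type replicate 1, at 3.21, and at 1.96 on Sting gt/gt replicate 1, with summed signals of 155 and 80.4 beside 151 on Fcgr2b-/- replicate 1.

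The median of the Y-linked list in the Sting gt/gt mice was set apart by replicate 3, at 2.92 against -2.74 or lower, a gap of 0.880 of the range. The labels give no sex.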

How the results depend on the processing

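Over all alternatives and the fits that each left out 1 array, the median of the podocyte genes kept its direction in Fcgr2b-/- against wild-type (0.28 to 1.14), double-deficient against Fcgr2b-/- (-0.60 to -0.09) and double-deficient against wild-type mice (0.26 to 0.69). Within slide 2 it was 0.28 for Fcgr2b-/- against wild-type. For Sting gt/gt against wild-type it was 0.93 within slide 1 and -0.23 within slide 2, and for the interaction -1.42 and 0.13. The cause was not tested.

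Scaling by the median moved all probes by -0.16 in Fcgr2b-/- against wild-type, -0.12 in double-deficient against wild-type, -0.24 in Sting gt/gt against wild-type, 0.13 in double-deficient against Sting gt/gt and 0.28 in the interaction.

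In limma 18 probes were called in Fcgr2b-/- against wild-type, with 10 after normexp, 7 in the authors' table, 0 among probes above background on all 16 arrays, 0 in a fit of only the groups compared, 3 with the leading number in the animal label as a random effect and 8 with Y-linked signal as a covariate. The exact Mann-Whitney test gave 144 without adjustment, 1 podocyte gene (Synpo) among them, and 0 with it. Leaving out 1 array gave 0 to 37. Double-deficient against wild-type had 0 in limma, 1 after normexp, 1 above background on all arrays, 3 in the fit of only the groups compared, 63 by unadjusted Mann-Whitney, and 0 to 1 with 1 array left out. Unadjusted Mann-Whitney counts were 41 in double-deficient against Fcgr2b-/-, 127 in Sting gt/gt against wild-type and 171 in double-deficient against Sting gt/gt, where the fit of only the groups compared gave 2. The cause was not tested.

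Podocyte genes also changed sign within single slides, as the slide values show. In fits over both slides they changed sign as follows, and the cause was not tested. In double-deficient against Fcgr2b-/-, Magi2 was -0.0088 with quantile normalization, -0.010 in the authors' table and -0.19 with the slide as a block. Podxl was 0.027 with scaling by the median, 0.11 with the slide as a block and 0.072 with Y-linked signal. Nphs1 was 0.18 with the random block and 0.022 with Y-linked signal. In Sting gt/gt against wild-type, Wt1 was -0.038 with scaling by the median and -0.042 with Y-linked signal, Ptpro -0.10 with scaling by the median, and Synpo -0.038 as the mean of its probes. In double-deficient against Sting gt/gt, Nphs1 was -0.0092 with array brightness as a covariate, an alternative chosen after seeing the data.

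With 1 array left out, the ranges that crossed 0 were as follows. In Fcgr2b-/- against wild-type, Magi2 ran from -0.075 to 0.39. In double-deficient against Fcgr2b-/-, Nphs1 ran from -0.46 to 0.19, Podxl from -0.27 to 0.16, Magi2 from -0.17 to 0.23 and Plce1 from -0.63 to 0.026. In double-deficient against wild-type, Magi2 ran from -0.062 to 0.44. In Sting gt/gt against wild-type, Wt1 ran from -0.063 to 0.48 and Ptpro from -0.14 to 0.38. In double-deficient against Sting gt/gt, Nphs1 ran from -0.33 to 0.50, Podxl from -0.030 to 0.47, Synpo from -0.026 to 0.32, Wt1 from -0.19 to 0.39, Cdkn1c from -0.020 to 0.48, Magi2 from -0.45 to 0.036 and Plce1 from -0.44 to 0.036.

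The replicate numbers gave no steady pairing of the arrays: deviations of same-numbered arrays correlated from -0.60 to 0.69, over 0.1 in 11 of 24 pairs. Their median was -0.06, beside -0.03 for differently numbered arrays. Replicates 1 of the wild-type, Fcgr2b-/- and Sting gt/gt mice correlated at 0.43 to 0.69 with each other. Double-deficient replicate 1 was at -0.60 with wild-type replicate 1. Shared handling by number was not tested. With the replicate number as a block, 16 probes and 0 podocyte genes were called in Fcgr2b-/- against wild-type, the medians were as without it, and no other call changed.

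With 4 arrays per genotype the intervals were wide: that of Nphs1 in Fcgr2b-/- against wild-type mice ran from -0.15 to 2.07. The dimmest array, Fcgr2b-/- replicate 2, had the fewest probes above background, 28443, although the 8 brightest podocyte probes were above it on every array. Fcgr2b genotype and strain run together completely. Genotype, slide, brightness and Y-linked signal run together in part.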
